A study of Homo sapiens with 12 samples.

Results

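Heat-shock proteins and their J-domain cochaperones were measured as mRNA in HEK293T, a cell line from human embryonic kidney, with and without a hairpin against HuR. The members were chosen by gene symbol: every HSPA, HSPB, HSP90, DNAJA, DNAJB and DNAJC gene of the count table, with HSPH1, HSPD1, HSPE1 and the transcription factors HSF1 and HSF2, at a mean CPM (reads of a gene scaled to the library's total) of 1 or more over the libraries. Of 23615 genes in the table, 76 matched by symbol and 62 met the level; the lowest members were DNAJC15 at 1.04 and HSPA1A at 1.11 CPM, and the genes just below the limit were HSPB8 at 0.499 and HSPB9 at 0.488 CPM. All 62 passed the filter on low counts, so every member was tested.

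HuR, encoded by ELAVL1, is an RNA-binding protein that binds AU-rich and U-rich stretches of mRNA. The study asked what it contributes to the transcriptome of cells exposed to an electrophile or an oxidant. The shHuR line expressed 1 hairpin against ELAVL1 and the shControl line a control hairpin; both came from lentiviral infection followed by selection in puromycin, and the labels do not say that either is a clone. Cells of each line were left untreated, given 25 µM HNE(alkyne), a tagged form of the electrophile hydroxynonenal that arises from lipid peroxidation, or given 225 µM H2O2, the oxidant hydrogen peroxide. Exposure lasted 18 h. The 12 libraries are 2 biological replicates in each of 6 groups. With 1 line per hairpin, the effect of the hairpin and other differences between the lines cannot be told apart.

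HSP70 proteins bind exposed hydrophobic stretches of a client and release them in a cycle of ATP hydrolysis. J-domain proteins (DNAJA, DNAJB, DNAJC) bring clients to HSP70 and start hydrolysis, and HSP110 proteins and other exchange factors drive the release of ADP. HSP90 acts later on partly folded clients, the chaperonin HSPD1 with its lid HSPE1 folds proteins inside mitochondria, and HSPA5 with its own J-proteins serves the endoplasmic reticulum (ER). HSF1 is the main activator of the cytosolic genes after heat or proteotoxic stress and binds the heat shock element, repeats of GAA in alternating orientation. ER stress acts on HSPA5 and its partners through other factors and the ER stress element.

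The promoter windows of 4 genes higher in the shHuR line are given first, because their exact matches to the heat shock element differed. Each is the 250 bases before the start site, from RefSeq on GRCh38.p14, written 5′ to 3′ in the direction of the gene; capitals mark every match to GAANNTTC or TTCNNGAA, a pair of neighbouring units, where N is any base.
HSPA1B (chr6:31827488-31827737, plus strand): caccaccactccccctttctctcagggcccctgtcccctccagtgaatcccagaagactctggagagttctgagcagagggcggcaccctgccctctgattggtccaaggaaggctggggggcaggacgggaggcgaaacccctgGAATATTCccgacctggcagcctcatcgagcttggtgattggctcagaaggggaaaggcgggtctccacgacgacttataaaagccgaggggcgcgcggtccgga
HSPA8 (chr11:123062137-123062386, minus strand): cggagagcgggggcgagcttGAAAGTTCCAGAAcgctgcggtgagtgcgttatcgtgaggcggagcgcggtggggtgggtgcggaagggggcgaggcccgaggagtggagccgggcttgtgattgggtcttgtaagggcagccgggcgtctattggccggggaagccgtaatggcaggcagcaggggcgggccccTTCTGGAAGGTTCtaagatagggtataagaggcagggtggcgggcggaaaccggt
DNAJB1 (chr19:14518398-14518647, minus strand): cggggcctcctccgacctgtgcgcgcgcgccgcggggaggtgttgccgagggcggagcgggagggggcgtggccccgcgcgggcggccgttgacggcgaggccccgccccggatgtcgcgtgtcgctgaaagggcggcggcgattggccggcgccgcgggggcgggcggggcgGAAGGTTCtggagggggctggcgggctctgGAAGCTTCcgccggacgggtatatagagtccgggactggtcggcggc
DNAJA1 (chr9:33025023-33025272, plus strand): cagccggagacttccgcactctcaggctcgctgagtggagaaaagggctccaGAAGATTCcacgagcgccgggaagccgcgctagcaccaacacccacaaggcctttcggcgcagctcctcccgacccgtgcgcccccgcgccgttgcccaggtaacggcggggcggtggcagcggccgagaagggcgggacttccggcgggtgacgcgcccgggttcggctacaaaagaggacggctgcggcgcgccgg
Only exact matches were counted, here and below, so a unit with a changed base is not marked. The HSPA1B window held 1 paired element, 105 bases before the start. The HSPA8 window held longer runs 230 and 55 bases before the start, each with 3 units. The listed span of HSPA8 extends to position 123062462, so both runs lie inside it. DNAJB1 held 2 separate paired elements, 77 and 47 bases before the start of 1 of its 3 listed windows. That window was picked for its matches: the one with the most was printed, with nearness to the start deciding ties. DNAJA1 held 1 paired element 198 bases before the start, and a further one with 3 units just after it.

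The 3-unit element, GAANNTTCNNGAA on either strand, was the rarer match and is shown for DNAJA1 and for the members not printed above, with the gene's strand named, capitals on 1 such element and lower case for the bases beside it.
DNAJA1 (chr9:33025268-33025296, plus strand): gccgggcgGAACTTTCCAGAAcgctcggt
HSP90AA1 (chr14:102087112-102087140, minus strand): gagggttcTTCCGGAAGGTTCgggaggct
HSP90AB1 (chr6:44247770-44247798, plus strand): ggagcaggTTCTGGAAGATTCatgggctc
DNAJB6 (chr7:157336865-157336893, plus strand): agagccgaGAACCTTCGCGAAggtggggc
HSPD1 (chr2:197500060-197500088, minus strand): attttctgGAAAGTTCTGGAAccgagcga
The HSPD1 element lies 240 bases before the second of its 2 listed starts and 194 bases after the first. The HSP90AA1 and HSP90AB1 elements lie 88 and 165 bases before 1 of 2 and 1 of 3 listed starts and inside the gene from the others.
Over windows from 250 bases before to 50 after the start, 55 of 62 members matched a RefSeq entry; those without one were DNAJC1, DNAJC22, DNAJC24, HSF1, HSPA12B, HSPA14 and HSPB11. The 3-unit element was in 6 of the 55 (10.9%), against 0.608% of 27305 genes with such windows. The paired element, which the 3-unit element contains, was in 17 of 55 (30.9%) against 16.2% of genes. Both shares describe letters, not bound sites.

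By the line difference described next, the 3-unit element was in 3 of 16 matched members that were higher in shHuR, 1 of 8 that were lower and 2 of 31 that were not called. HSPA1B and DNAJB1, which were among the members with the highest fold changes, had an exact match only to the paired form. HSP90AB1, with 2 of the 3-unit elements, had nearly the same level in both lines. The ER stress element, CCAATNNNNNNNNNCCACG on either strand, was in 0.0916% of genes and in 2 members, HSPA5 and HSP90B1. Both are shown because only HSPA5 passed the test between the lines. HSP90B1 held 2 matches, 194 and 89 bases before its start, and the one further away is printed.
HSPA5 (chr9:125241383-125241417, minus strand): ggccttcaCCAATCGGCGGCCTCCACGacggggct
HSP90B1 (chr12:103930208-103930242, plus strand): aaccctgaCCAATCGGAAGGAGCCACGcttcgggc

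Total counts ran from 24855946 to 29907256 per library, and the 62 members took 1.34% to 1.61% of them. ELAVL1 checked the labels: it fell by 0.38 on the log2 scale in shHuR over all treatments (SE 0.0405), with 86 to 99.4 CPM in the 6 shControl libraries and 69.3 to 74.5 in the 6 shHuR libraries (exact permutation test of CPM over 924 splits, 2-sided, p = 0.00216). The transcript was thus reduced by 23.4%, and the protein was not measured. The 2 replicates of the HNE-treated shControl group lay furthest apart. The median gap between the pair over the members was 0.21 on the log2 scale, against 0.04 to 0.14 in the other groups. Such a gap does not show which replicate is the unusual one. Of the line's own markers VIM was at 346 to 527 CPM, NEFL at 66.5 to 111, KRT18 at 30.4 to 39 and PAX2 at 0.146 to 0.489. Summed with KRT8, NEFM and LHX1, these markers were at 587 to 677 CPM in shControl and 474 to 539 in shHuR. The part of this sum in the results was not tested. Of 7 markers of other cell types HBB and INS were at 0 in all 12 libraries. COL1A1 was above 0 in every library, at 2.18 to 4.69 CPM, and made up most of the sum of 2.45 to 4.81 CPM. PTPRC, CD3E, ALB and PECAM1 were at 0 in some libraries and reached at most 0.219 CPM.

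Per gene length, 4 members made up 54.4% of the members' summed FPKM (fragments per kilobase, scaled to the library): HSPD1 at a mean of 988, HSP90AA1 at 780, HSPA8 at 778 and HSP90AB1 at 760. HSP90B1 followed at 309, HSPE1 at 231, HSPA9 at 225 and DNAJA1 at 225. In all, 11 members were at 100 FPKM or above, 31 between 10 and 100, 15 between 1 and 10, and 5 below 1. The inducible HSP70 gene HSPA1B was at 148 FPKM over all libraries and its near-identical copy HSPA1A at 0.485. Reads from this pair can be assigned to either copy, so the split between them is uncertain; with the counts of both added, every call named here was kept.

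Between the lines, 10 of 32 cytosolic and nuclear members were higher in shHuR (31.2%, beside 14.1% of genes) and 2 lower (6.25%, beside 15.9%). HSPA8, HSPA1B and DNAJB1 were at 1.59, 1.77 and 1.59 times their shControl level. Of the 9 mitochondrial members 1 was higher and 2, the chaperonin genes HSPE1 and HSPD1, were lower. A further 7 members were assigned to no compartment and enter none of the compartment counts: DNAJC16, DNAJC18, DNAJC22, DNAJC25, DNAJC27, DNAJC28 and HSPB11. Of those 7, 1 was higher (14.3%, beside 14.1% of genes) and 0 lower. Over all treatments 26 of 62 members (41.9%) passed an adjusted p of 0.05 in edgeR's quasi-likelihood test, beside 29.9% of 16005 genes. Of these 17 were higher (27.4%, beside 14.1% of genes) and 9 lower (14.5%, beside 15.9%). The members' median log2 fold change was 0.06, against -0.0018 over all genes. The members were also more abundant than most genes, with a median of 62.5 CPM against 20.9, and abundant genes are measured with less counting error, so the share of members called is not read as particular to them. In bulk RNA, fewer cells of a type and less RNA per cell cannot be told apart.

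**Figure D1:**
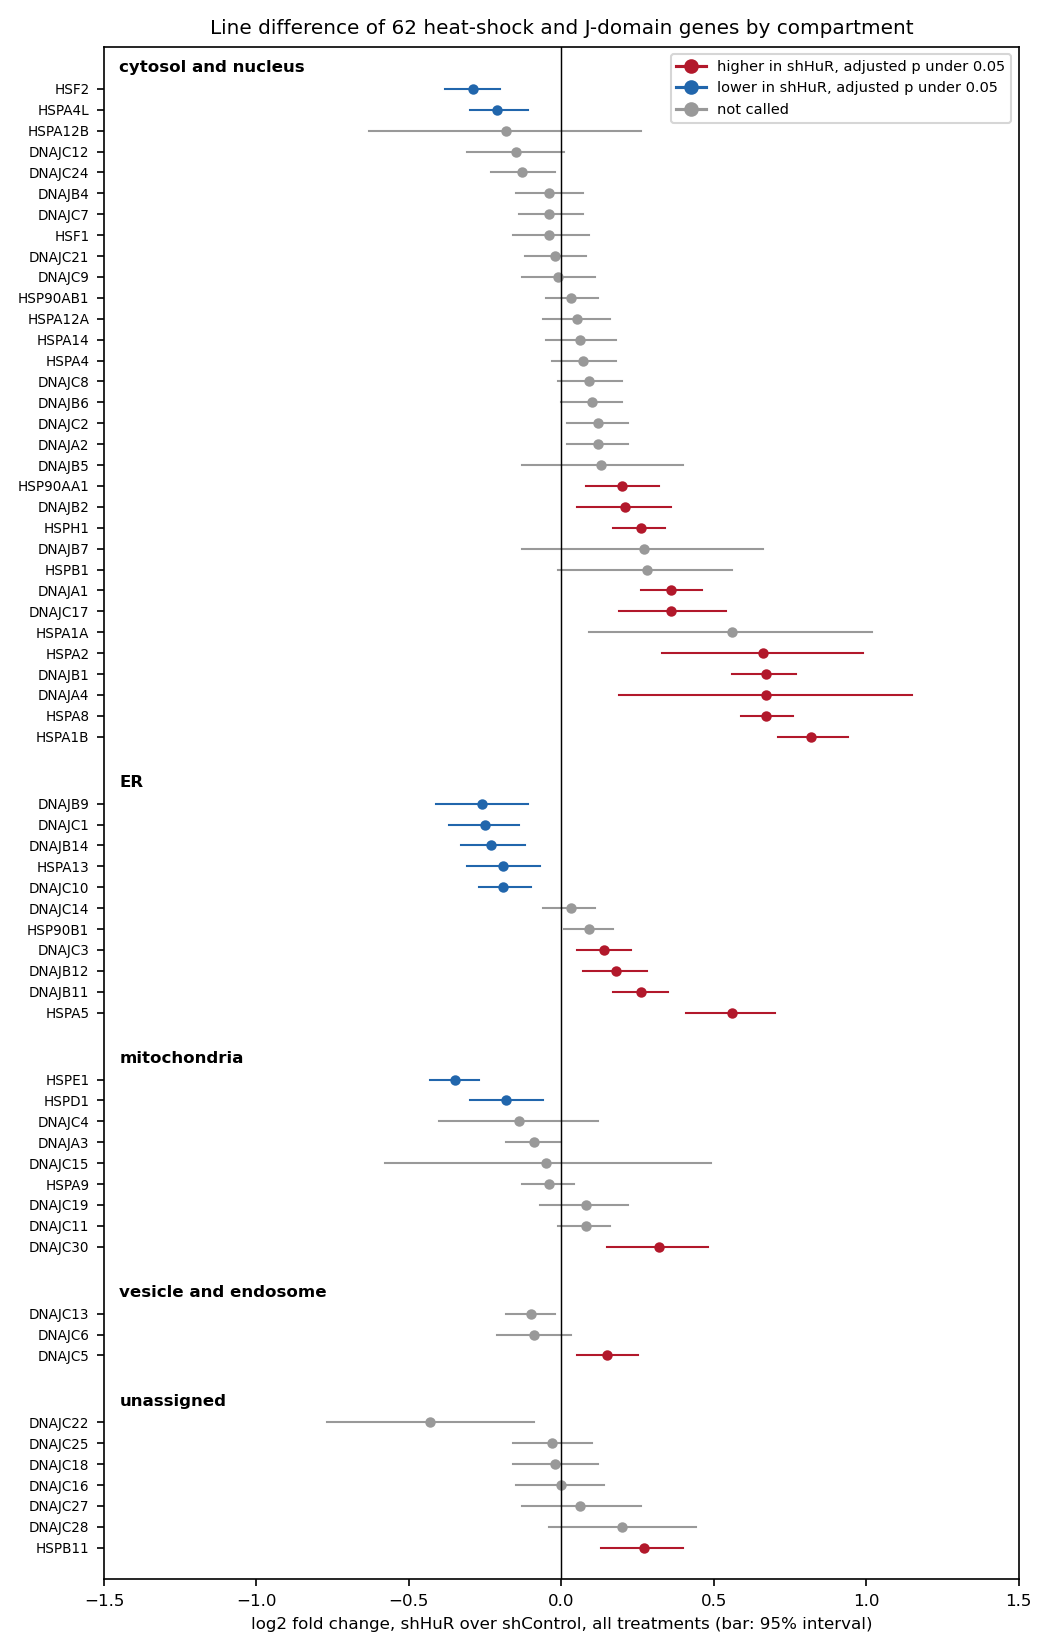
Log2 fold change of each of the 62 members, shHuR over shControl over all treatments (horizontal axis), by compartment; points are estimates from edgeR and bars 95% intervals, in red for the 17 higher, blue for the 9 lower and grey for the others. The cytosolic panel reaches from -0.29 (HSF2) to 0.82 (HSPA1B), the ER panel splits into 4 higher and 5 lower, and both chaperonin genes lie left of 0.

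HSPA8, the constitutive cytosolic HSP70 that also serves clathrin uncoating and chaperone-mediated autophagy, had 1190, 1290 and 1380 CPM (lowest, median and highest) in the shControl libraries and 1910, 2010 and 2260 in the shHuR libraries. Every shHuR library was above every shControl library. It was 1.59-fold higher in shHuR (log2 0.67, SE 0.0399, adjusted p = 6.98e-09).

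HSPA1B, the stress-inducible HSP70, had 230 and 224 CPM in untreated shControl cells, 247 and 324 with HNE and 231 and 260 with H2O2. In shHuR it had 411 and 407 CPM untreated, 471 and 470 with HNE and 460 and 459 with H2O2. The lines did not overlap, and the highest shControl value was replicate 2 of the HNE-treated group. The difference was 1.77-fold (log2 0.82, SE 0.0557, adjusted p = 1.86e-08), the largest among the called members. HSPA1A, at 0.491 to 1.18 CPM in shControl and 1.06 to 1.65 in shHuR, had a log2 difference of 0.56 (95% interval 0.09 to 1.02, adjusted p = 0.0674).

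DNAJB1, the J-protein that works with HSP70 in refolding and in disaggregation, had 45.4, 51.3 and 61.9 CPM in shControl and 75.3, 81.5 and 90.1 in shHuR, again with no overlap. It was 1.59-fold higher (log2 0.67, SE 0.0488, adjusted p = 4.15e-08). DNAJA1, its class A counterpart, had 249, 261 and 307 CPM in shControl and 308, 346 and 371 in shHuR. The top shControl library, again replicate 2 of the HNE-treated group, lay just below the lowest shHuR library. The difference was 1.28-fold (log2 0.36, SE 0.0481, adjusted p = 2.8e-05).

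Of the 3 HSP110 exchange factors, 1 was higher (33.3%, beside 14.1% of genes), 1 lower (33.3%, beside 15.9%) and 1 not called. HSPH1 had 222, 233 and 262 CPM in shControl and 265, 292 and 302 in shHuR, a 1.2-fold difference without overlap (log2 0.26, SE 0.0407, adjusted p = 1.45e-04). HSPA4L fell by 0.21 (SE 0.0444, adjusted p = 0.002), from 115 to 124 CPM in shControl to 95.6 to 113 in shHuR. HSPA4, the most abundant of the 3, had 465 to 644 CPM in shControl and 477 to 623 in shHuR, which overlap (log2 0.07, 95% interval -0.03 to 0.18, adjusted p = 0.276).

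**Figure D2:**
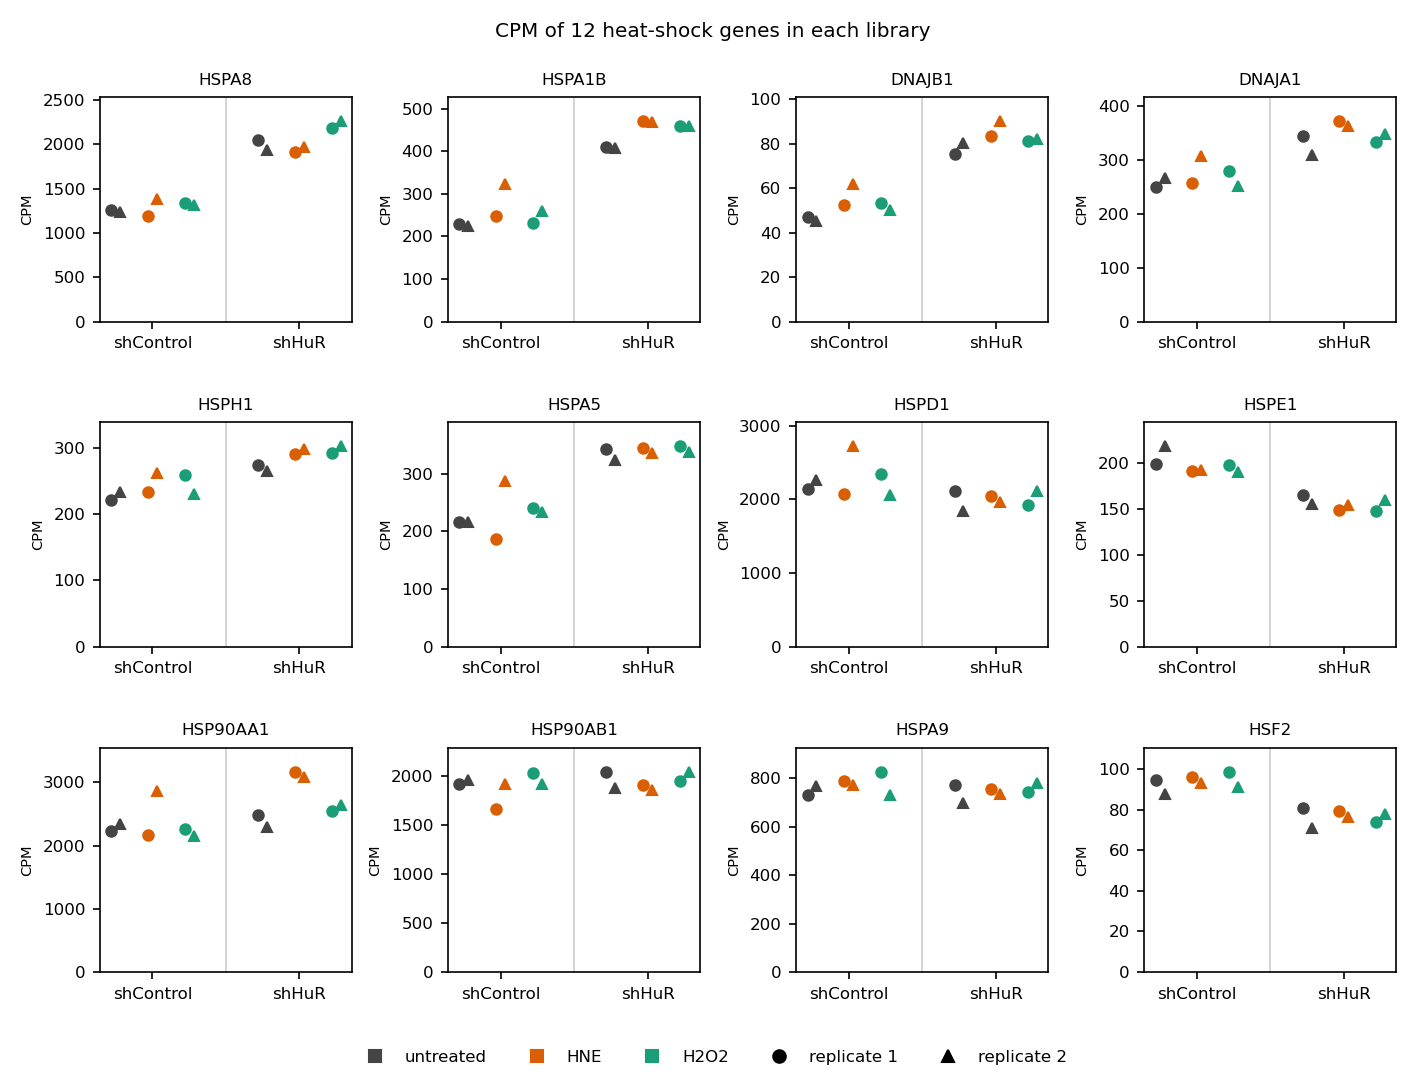
CPM (vertical axes, from 0) of 12 members in each of the 12 libraries, by line, with treatment as colour and replicate as symbol. HSPA8, HSPA1B, DNAJB1, DNAJA1, HSPH1 and HSPA5 sit higher in every shHuR library, HSPE1 and HSF2 sit lower, and HSPD1, HSP90AA1, HSP90AB1 and HSPA9 overlap between the lines.

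Rarer cytosolic members were also called. HSPA2, an HSP70 best known from the testis, rose 1.58-fold from 1.43 to 1.8 CPM to 2.24 to 3.21 CPM, without overlap (SE of the log2 value 0.155, adjusted p = 0.00383). DNAJA4 at 0.613 to 1.54 CPM in shControl and 1.10 to 1.98 in shHuR rose by 0.67 (SE 0.229, adjusted p = 0.035). That call was lost when any 1 of 7 libraries was left out (replicate 2 of HNE-treated shControl, either replicate of H2O2-treated shControl, replicate 2 of untreated or HNE-treated shHuR, or either replicate of H2O2-treated shHuR), with adjusted p from 0.0553 to 0.0993. DNAJC17, a nuclear J-protein with an RNA recognition motif, rose by 0.36 (7.70 to 9.57 against 9.83 to 12.0 CPM), and DNAJB2, a J-protein with ubiquitin-interacting motifs, by 0.21.

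Of the cytosolic HSP90 genes 1 was called. HSP90AA1, the inducible form, had 2160, 2250 and 2860 CPM in shControl and 2290, 2600 and 3170 in shHuR, which overlap, and it rose by 0.20 (SE 0.0570, adjusted p = 0.012). In limma on log2(FPKM + 1) without a filter its adjusted p was 0.0645 and that of DNAJA4 0.0573, past the threshold for neither. HSP90AB1, the constitutive form, had 1660, 1920 and 2030 against 1850, 1930 and 2040 CPM, with a log2 difference of 0.03 (95% interval -0.05 to 0.12, adjusted p = 0.585). The FPKM ratio of HSPA8 to HSP90AB1 was 0.745 to 0.849 in shControl and 1.18 to 1.32 in shHuR, and the ratio of HSPA8 to HSPD1 was 0.515 to 0.646 and 0.937 to 1.14. These ratios are descriptions of genes already tested.

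At the ER 4 of 11 members were higher (36.4%, beside 14.1% of genes), 5 lower (45.5%, beside 15.9%) and 2 not called, with a median log2 fold change of 0.03. HSPA5 (BiP), the ER HSP70 and the main sensor-binding chaperone of the unfolded protein response, had 216 and 216 CPM untreated, 187 and 287 with HNE and 241 and 234 with H2O2 in shControl. In shHuR it had 342 and 323, 344 and 336, and 347 and 337. The lines did not overlap, and the HNE pair of shControl was the widest. The difference was 1.47-fold (log2 0.56, SE 0.0699, adjusted p = 1.63e-05). HSP90B1 (GRP94), which shares the ER stress element, had 753 to 846 CPM in shControl and 813 to 913 in shHuR, a log2 difference of 0.09 (95% interval 0.01 to 0.17, adjusted p = 0.0814), and the FPKM ratio of HSPA5 to HSP90B1 went from 0.175 to 0.24 in shControl to 0.261 to 0.28 in shHuR.

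Among the J-proteins that serve HSPA5, DNAJB11 (ERdj3), a soluble J-protein that binds clients, rose by 0.26 (51.0 to 55.5 CPM against 57.2 to 69.9, SE 0.0422, adjusted p = 1.89e-04). DNAJC3, which also inhibits the kinase PKR, rose by 0.14. DNAJB9 (ERdj4), which represses IRE1 signalling, fell by 0.26, DNAJC1 (ERdj1) by 0.25 and DNAJC10 (ERdj5), a disulfide reductase, by 0.19. HSPA13, an HSP70 relative and not a J-protein, fell by 0.19. The lines overlapped for those 4 genes that fell. DNAJB12 and DNAJB14 sit in the ER membrane with the J domain in the cytosol, where they recruit HSPA8 for ER-associated degradation. DNAJB12 rose by 0.18, while DNAJB14 fell by 0.23 (42.2 to 47.1 against 35.3 to 39.7 CPM, adjusted p = 0.00199).

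In mitochondria HSPE1 (HSP10) had 190, 195 and 218 CPM in shControl and 148, 155 and 165 in shHuR. No shHuR library reached the lowest shControl library, and HSPE1 fell by 0.35 (SE 0.0385, adjusted p = 3.64e-06), or 21.7%. Its counts were fractional in 5 libraries, so part of its level may be uncertain through reads that match other loci. Its partner HSPD1 (HSP60) had 2060, 2210 and 2720 CPM against 1850, 2000 and 2120, which overlap, and fell by 0.18 (SE 0.0584, adjusted p = 0.0278). The HSPD1 call was lost without replicate 2 of untreated shControl, replicate 1 of H2O2-treated shControl, replicate 2 of untreated shHuR, either replicate of HNE-treated shHuR or replicate 1 of H2O2-treated shHuR, with adjusted p from 0.054 to 0.0748, and in limma on FPKM, with adjusted p from 0.105 to 0.142.

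HSPD1 and HSPE1 are transcribed in opposite directions from neighbouring starts: their RefSeq starts on chromosome 2 lie 105 bases apart. The FPKM ratio of HSPE1 to HSPD1 was 0.2 to 0.272 in shControl and 0.205 to 0.238 in shHuR, and the ranges overlap. HSPA9 (mortalin), the mitochondrial HSP70, was at 732 to 828 CPM in shControl and 699 to 782 in shHuR, with a log2 difference of -0.04 (95% interval -0.13 to 0.04, adjusted p = 0.44). Of the 9 mitochondrial members DNAJC30 alone was higher, by 0.32 (7.04 to 9.14 against 9.32 to 11.3 CPM, adjusted p = 0.00553), and 6 were not called. The mitochondrial shares were 11.1% higher (beside 14.1% of genes) and 22.2% lower (beside 15.9%).

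**Figure D3:**
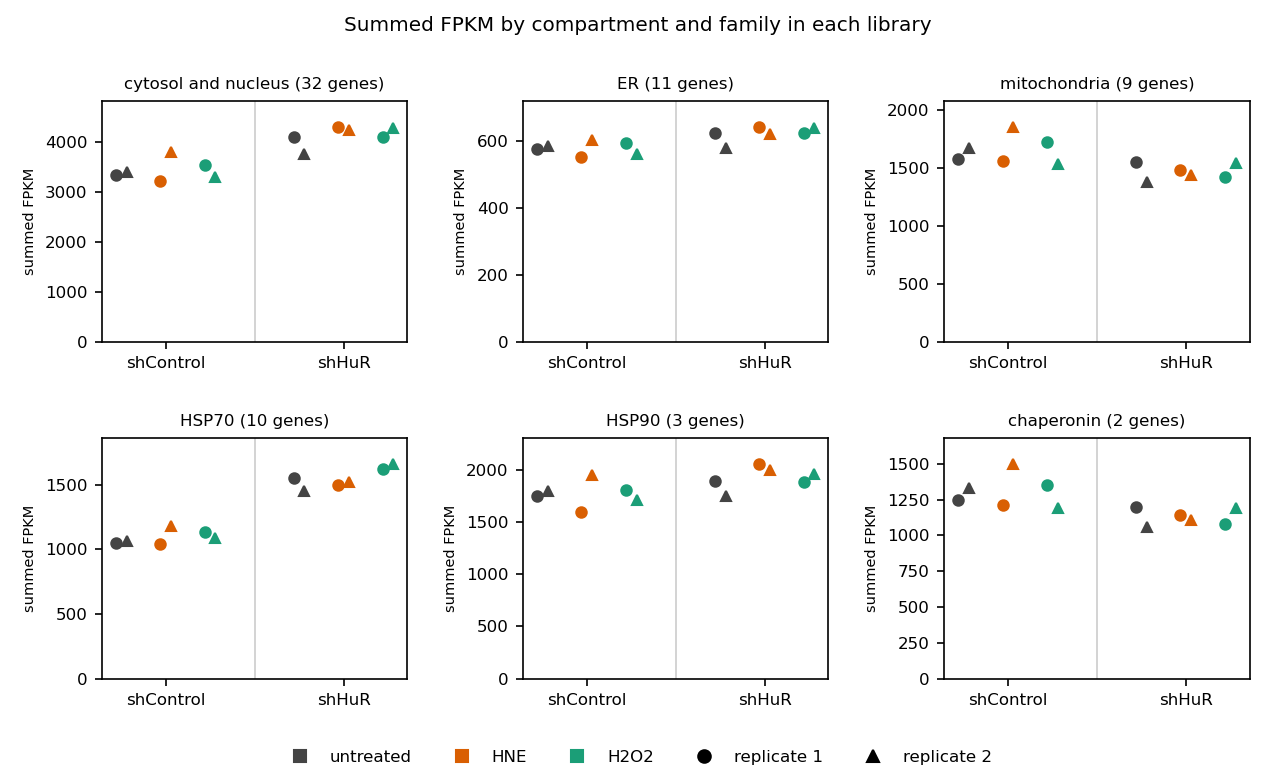
Summed FPKM (vertical axes, from 0) of the members by compartment (top) and for 3 families (bottom) in each library, with treatment as colour and replicate as symbol. The HSP70 sum is 1040 to 1180 in shControl and 1450 to 1660 in shHuR, while the sums of the cytosol (3220 to 3790 against 3760 to 4290), HSP90, the ER, the mitochondria and the chaperonins overlap between the lines.

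Summed per length, the 10 HSP70 genes had a median of 1070 FPKM in shControl and 1540 in shHuR, a ratio of means of 1.42. The 3 HSP90 genes had 1780 and 1930, a ratio of 1.09, and the 2 chaperonin genes 1290 and 1130, a ratio of 0.866. The sums follow their most abundant members, so the HSP70 sum is mostly HSPA8.

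By family, HSP70 had 4 higher (40%, beside 14.1% of all genes) and 1 lower (10%, beside 15.9%) of 10 tested, with a median log2 fold change of 0.31. DNAJA had 2 higher (50%) and 0 lower of 4, and DNAJB 4 higher (40%) and 2 lower (20%) of 10. The 26 DNAJC genes, which are the most varied J-proteins and often do not bind clients themselves, had 4 higher (15.4%, near the share of all genes) and 2 lower (7.69%) and a median of -0.01. DNAJC5, the cysteine string protein of secretory vesicles, rose by 0.15. DNAJC13 and DNAJC6, which act on endosomes and clathrin coats, had values of -0.10 and -0.09. Of the small heat-shock proteins HSPB11, which works in intraflagellar transport rather than as a chaperone, rose by 0.27 (23.4 to 31.5 against 28.7 to 33.4 CPM), and HSPB1 (HSP27), at 3.94 to 8.11 CPM, had 0.28 with a 95% interval of -0.01 to 0.56 (adjusted p = 0.129).

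Neither transcription factor was higher in shHuR. HSF1 had 33.8, 36.9 and 40.4 CPM in shControl and 32.1, 36.1 and 39.0 in shHuR, with a log2 difference of -0.04 (95% interval -0.16 to 0.09, adjusted p = 0.698). HSF2, which can form mixed trimers with HSF1, had 87.6, 93.7 and 98.7 against 71.1, 77.3 and 80.8 CPM. Its lines did not overlap, and it fell by 0.29 (SE 0.0438, adjusted p = 1e-04), or 18.1%. The mRNA level of HSF1 does not measure its activity.

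The line difference was then taken within each treatment. Without treatment 11 of 62 members were called (17.7%, beside 7.98% of genes), with 7 higher (beside 3.5%) and 4 lower (beside 4.48%). With HNE there were 8 (12.9%, beside 8.27%), 6 higher (beside 3.24%) and 2 lower (beside 5.04%). With H2O2 there were 10 (16.1%, beside 7.19%), 8 higher (beside 2.52%) and 2 lower (beside 4.67%). DNAJA1, DNAJB1, HSPA1B, HSPA5 and HSPA8 were higher and HSPE1 lower in all 3, which is 6 members (9.68%, beside 2.95% of genes). These counts move with single libraries, and in each fit named next the share of all genes called also fell. The untreated count was 3 to 7 without any 1 of the 4 untreated libraries or the 4 treated shHuR libraries, the HNE count 3 without either HNE-treated shHuR library, and the H2O2 count 3 to 5 without replicate 1 of H2O2-treated shControl or either H2O2-treated shHuR library.

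HSPA1B, HSPA8 and DNAJB1 were called in each treatment with any library left out. HSPA1B differed by 0.85 untreated (SE 0.0987), 0.72 with HNE (SE 0.0983) and 0.90 with H2O2 (SE 0.0986). HSPA8 differed by 0.68, 0.60 and 0.74, each with an SE of 0.0694 or 0.0695, and DNAJB1 by 0.75, 0.60 and 0.65, with SEs from 0.0848 to 0.0856. For each of the 3 genes the values in the treatments lay within the others' 95% intervals.

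HSPA5 differed by 0.62 untreated, 0.52 with HNE and 0.53 with H2O2. The HNE value moved from 0.25 without replicate 1 of HNE-treated shControl to 0.86 without replicate 2, and stayed past the threshold in both cases. Leaving out any other library of the compared groups ended the HSPA5 call of that treatment, with adjusted p from 0.0575 to 0.154. It was also lost untreated in limma on FPKM without a filter (adjusted p = 0.0794), with HNE in all 3 limma settings (0.055 to 0.104) and in the fit to the compared groups alone (0.154), and with H2O2 in all 3 limma settings (0.0685 to 0.124). DNAJA1 differed by 0.34, 0.38 and 0.36 and HSPE1 by -0.38, -0.34 and -0.34. The DNAJA1 calls were lost in untreated cells without any 1 of the 4 untreated or 4 treated shHuR libraries, with HNE without replicate 1 of HNE-treated shControl or either HNE-treated shHuR library, and with H2O2 without replicate 2 of H2O2-treated shControl or either H2O2-treated shHuR library (adjusted p from 0.0521 to 0.22). They were also lost in limma, in all 3 settings untreated (0.0701 to 0.104) and with H2O2 (0.0599 to 0.09) and without a filter with HNE (0.0715), and with HNE in the fit to the compared groups alone (0.0936). The HSPE1 calls were lost in untreated cells without replicate 2 of either line, with HNE without either shHuR library and with H2O2 without replicate 1 of either line (adjusted p from 0.0687 to 0.14), and with HNE in the fit to the compared groups alone (0.0691).

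Across all 12 libraries, shHuR lay wholly above shControl for 10 members (16.1%, beside 5.25% of genes) and wholly below for 4 (6.45%, beside 6.84%). Those above were DNAJA1, DNAJB1, DNAJB11, DNAJC17, DNAJC30, HSPA1B, HSPA2, HSPA5, HSPA8 and HSPH1. Those below were DNAJB14, HSF2, HSPA4L and HSPE1. The sign of the line difference was the same in all 3 treatments for 46 members (74.2%, beside 57.2% of genes).

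With HNE no member passed the test in edgeR with the filter on low counts. The members' average log2 values with HNE ran from -0.35 to 0.36, against -0.43 to 0.82 between the lines. HSPA4 and HSP90AA1 had larger values with HNE than between the lines. Over both lines 0 of 62 were called (beside 0.247% of 15780 genes), with 13 at an unadjusted p under 0.05 (21.0%, beside 12.3%), 11 higher (beside 5.96%) and 2 lower (beside 6.34%). DESeq2 called 2 (3.23%, beside 1.15% of genes), HSPA1B (adjusted p = 0.028) and HSPA4 (adjusted p = 0.0126), and limma on FPKM 0. The edgeR test without a filter on low counts called 3 (4.84%, beside 1.63%), HSPA1B, HSPA4 and HSP90AA1, with adjusted p from 1.1e-04 to 0.00151. No other setting of tool, scaling or filter called a member here. Without replicate 1 of HNE-treated shControl 2 members were called (3.23%, beside 0.397% of genes), HSP90AA1 (log2 0.36, adjusted p = 0.00796) and HSPA4 (log2 0.32, adjusted p = 0.0366).

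HSPA4 had 489 and 499 CPM untreated against 529 and 644 with HNE in shControl, and 543 and 477 against 623 and 609 in shHuR. In both lines the HNE libraries were above the untreated ones. The average log2 value was 0.26 (95% interval 0.12 to 0.40, adjusted p = 0.139 in edgeR), and HSPA1B had 0.27 (0.11 to 0.42, adjusted p = 0.174). DNAJB1 had 0.23 (0.09 to 0.37, adjusted p = 0.209).

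HSP90AA1 had 2490 and 2290 CPM in untreated shHuR cells and 3170 and 3090 with HNE. In shControl it had 2230 and 2350 untreated and 2170 and 2860 with HNE, where the HNE pair lay on both sides of the untreated pair. The log2 value in shHuR was 0.39 (95% interval 0.18 to 0.60, adjusted p = 0.171 in edgeR, 0.0179 in DESeq2). HSPA8 itself, the member with the lowest p between the lines, had 0.00 over both lines (95% interval -0.11 to 0.12), and HSPA9, HSPD1 and HSF1 had 0.04, 0.07 and 0.04.

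**Figure D4:**
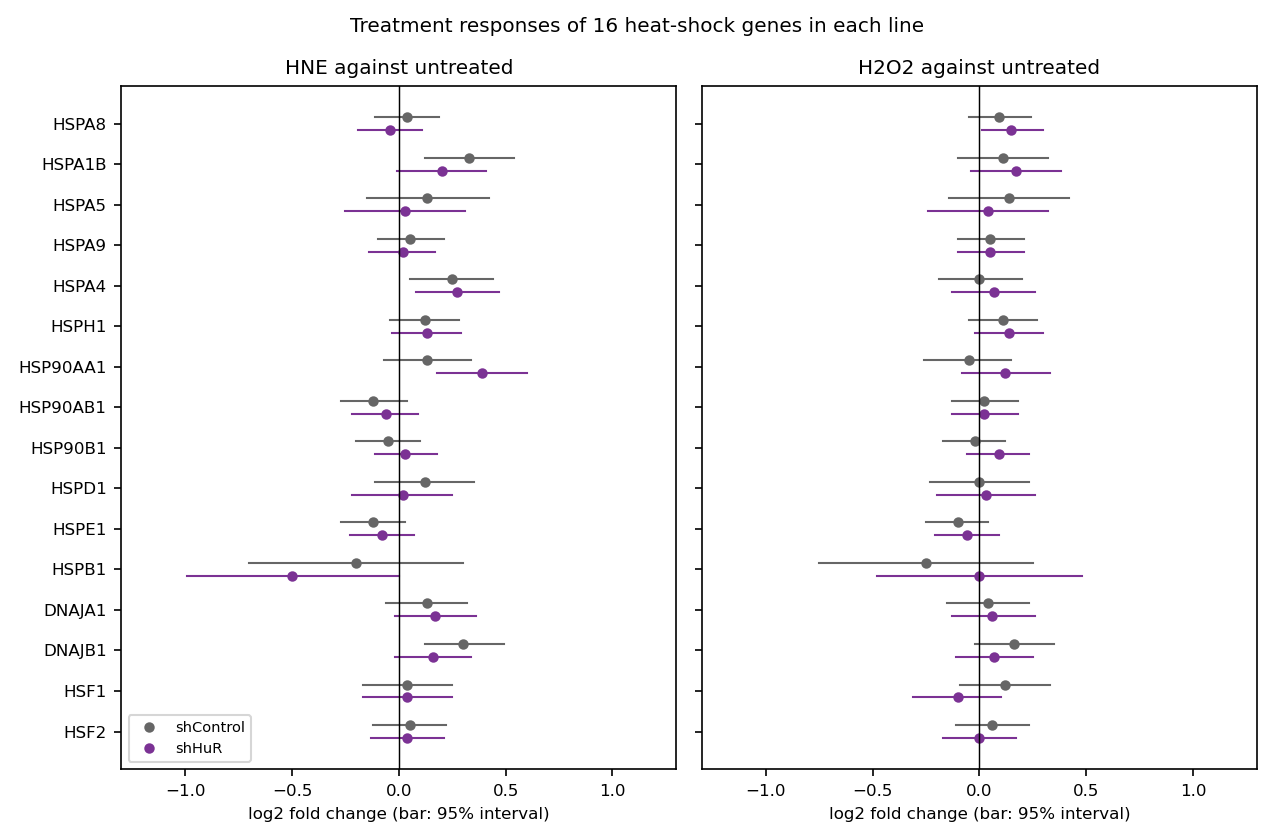
Log2 fold change of 16 members with HNE (left) and with H2O2 (right) against untreated cells (horizontal axes), in shControl (grey) and shHuR (purple); points are estimates from edgeR and bars 95% intervals. No point passed an adjusted p of 0.05; with HNE the intervals of HSPA4 lie above 0 in both lines, and with H2O2 only the interval of HSPA8 in shHuR does not hold 0. Both panels use the same untreated libraries.

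In shControl alone HNE gave 0 called members (beside 0.0187% of genes) and 6 at an unadjusted p under 0.05 (9.68%, beside 11.7%). Without a filter on low counts HSPA1B and HSPA4 were called (3.23%, beside 1.58%). Leaving out replicate 1 of HNE-treated shControl gave 5 called members (8.06%, beside 5.24% of genes in that fit), DNAJB1, HSP90AA1, HSPA1B, HSPA4 and HSPA5, with log2 values from 0.31 to 0.50. The 1 library left comes from the pair with the widest gap, and it is then assumed to vary like the other groups. In shHuR alone HNE gave 0 (beside 0.075%), while 9 had a raw p under 0.05 (14.5%, beside 8.95%). HSP90AA1 was called there in edgeR without a filter (adjusted p = 2.53e-06), together with HSPA4 (adjusted p = 0.0303), which makes 3.23% of members beside 0.949% of genes. It was the 1 member called (1.61%) in DESeq2 (beside 0.669%), in the fit to the 2 groups alone (adjusted p = 0.0296, beside 0.385%) and without either replicate of HNE-treated shControl (adjusted p of 0.00926 and 0.00829, beside 0.378% and 0.371%).

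Without a test, both HNE libraries lay above both untreated libraries in each line for 12 members (19.4%, beside 6.17% of genes): DNAJA2, DNAJB1, DNAJB4, DNAJB11, DNAJB12, DNAJC1, DNAJC7, DNAJC8, DNAJC14, DNAJC25, HSPA1B and HSPA4. They lay below in both lines for DNAJC27 and HSPE1 (3.23%, beside 6.32%). HSPE1 had -0.12 in shControl and -0.08 in shHuR. DNAJC27, a GTPase with a J domain, had -0.33 over both lines (adjusted p = 0.262).

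With H2O2 again no member passed. Over both lines 0 of 62 members were called (beside 0% of 15801 genes), and 6 had an unadjusted p under 0.05 (9.68%, beside 5.45%); DESeq2 and limma also called 0. The 2 with the lowest p were HSPA8, with a log2 value of 0.13 (95% interval 0.04 to 0.21), and HSPA1B, with 0.14 (0.04 to 0.24), each with an adjusted p of 0.9. HSP90AA1 had 0.04, DNAJB1 0.11 and HSPA5 0.09. Within shControl 0 were called and 1 had a raw p under 0.05 (1.61%, beside 4.34% of genes). Within shHuR 0 were called and 2 had a raw p under 0.05 (3.23%, beside 3.37%), and DESeq2 and limma called 0 in either line.

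Both H2O2 libraries were above both untreated ones in each line for DNAJB1, HSPA1B and HSPA8 (4.84%, beside 3% of genes) and below for DNAJC27 (1.61%, beside 3.18%). HSPA8 had 1260 and 1240 CPM untreated and 1340 and 1320 with H2O2 in shControl, and 2050 and 1940 against 2180 and 2260 in shHuR. The HNE and H2O2 comparisons share their untreated libraries, so a low or high untreated value enters both.

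No member's response was shown to differ between the lines. The interaction of line and treatment called 0 of 62 members for HNE and for H2O2 in edgeR, beside 0% of genes in each, and 0 in DESeq2 and limma, with 4 and 1 at a raw p under 0.05 (6.45% and 1.61%, beside 6.73% and 3.62% of genes). For HSPA1B the HNE response in shHuR less that in shControl was -0.13 (95% interval -0.43 to 0.17), for HSPA5 -0.10 (-0.50 to 0.29) and for HSPA8 -0.08 (-0.29 to 0.13). The HNE response of HSPA1B in shControl was 0.33, and a difference between the lines of that size lies inside the interval. For H2O2 the values were 0.05 (-0.24 to 0.35), -0.10 (-0.49 to 0.30) and 0.06 (-0.15 to 0.27).

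The chaperones' other partners were taken from a list by role. Of 51 listed genes 49 were tested; CRYAB and HIKESHI were not. Over all treatments 8 were higher in shHuR (16.3%, beside 14.1% of all genes) and 4 lower (8.16%, beside 15.9%), in edgeR. SERPINH1 (HSP47), the collagen chaperone of the ER, had 60.2 to 75.7 CPM in shControl and 81.5 to 89.3 in shHuR and rose by 0.40 (SE 0.0487, adjusted p = 1.13e-05).

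HYOU1 (GRP170), the exchange factor of HSPA5, had 161 to 181 against 210 to 226 CPM and rose by 0.37. STIP1 (HOP), which links HSP70 to HSP90, had 343 to 397 against 420 to 468 CPM and rose by 0.27. PFDN1, a prefoldin subunit, rose by 0.30 over all treatments; its value was 0.06 untreated (adjusted p = 0.737), 0.42 with HNE and 0.40 with H2O2. SERPINH1, HYOU1 and STIP1 did not overlap between the lines.

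STUB1 (CHIP), the ubiquitin ligase that marks HSP70 and HSP90 clients, had 68.2 to 87.7 CPM in shControl and 54.0 to 64.6 in shHuR and fell by 0.34. Its value was -0.13 untreated (adjusted p = 0.476), -0.49 with HNE and -0.39 with H2O2, and for neither STUB1 nor PFDN1 did the interaction with HNE pass (adjusted p = 0.712 for each). TOMM34, a cochaperone of mitochondrial import, fell by 0.27, PFDN4 by 0.25 and CCT4, a subunit of the cytosolic chaperonin, by 0.16. Of the 11 exchange factors and BAG proteins 2 were higher (18.2%) and 0 lower, and of the 17 adaptors 4 (23.5%) and 2 (11.8%). Of the 14 subunits of the cytosolic chaperonin and prefoldin 1 was higher (7.14%) and 2 lower (14.3%). Over all genes the shares were 14.1% higher and 15.9% lower. With HNE over both lines 0 partners were called in edgeR (beside 0.247% of genes), 9 of 49 had a raw p under 0.05 (18.4%, beside 12.3%), and 42 of 49 had a positive log2 value (beside 50.1% of genes), with a median of 0.07.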

How the data were processed

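Total RNA of 12 HEK293T libraries was depleted of ribosomal RNA and sequenced as single-end 75 bp reads from directional libraries, per the labels' protocols. Per the submitters' processing notes, tools were cutadapt 1.8, Bowtie2 2.2, TopHat2 2.1, Cufflinks 2.2, Cuffnorm and Cuffdiff, with builds GRCh37 and hg19; the annotation and the use of strand in counting are not given in the sources used here, so overlapping and antisense genes cannot be told apart, nor parent genes from processed pseudogenes. The authors deposited estimated counts (2.25% of values not whole, in 701 genes; rounded here) and FPKM, scaled by length and library by the authors.

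The members, families, partner list and tests were chosen with earlier results of these data known. Genes were filtered with filterByExpr (minimum count 10, by group; 16005 of 23615 kept) and scaled with TMM. Tests were edgeR 4.0.16 quasi-likelihood F-tests (R 4.3.3) on 6 group means; average effects used additive models (line over 12 libraries with treatment as covariate; HNE or H2O2 over 8 libraries with line as covariate). P-values were adjusted over all genes tested (Benjamini-Hochberg, threshold 0.05); SE is the log2 fold change over the square root of F. CPM uses TMM-scaled totals, except for the membership rule and the cell type markers, which use plain totals. Its precision is limited by counting error and the spread of 2 replicates. Scripts were tested on simulated data. Alternatives were DESeq2 1.42.0, other scalings and filters, limma 3.58.1 on log2(FPKM + 1) or log2(FPKM + 0.1), a replicate block, fits restricted to the groups being compared, and the omission of each library in turn; adding HSPA1A and HSPA1B was chosen after seeing the data. Fold changes on the log2(FPKM + pseudocount) scale understate those of low genes. Same-numbered replicates were not paired (deviations correlated from -0.11 to 0.13). Named by rule were 16 core members, ELAVL1, the 6 largest rises and 6 largest falls called per comparison, and up to 4 called partners in each direction; other members were named after their values were seen. Promoters are RefSeq windows on GRCh38.p14, a different build from the counts, used by symbol.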

Additional observations from a re-analysis of the deposited data

How the results depend on the processing

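Of 47 log2 fold changes of named genes none changed sign under any alternative. HSPA1B, HSPA8 and DNAJB1 passed in every alternative, over all treatments and within each. DESeq2, a mean CPM of at least 1 and the summed HSPA1 counts kept all 47. Fewest were kept by limma on log2(FPKM + 1) without a filter, 32 of 47. The fit to the compared groups alone kept 23 of the 30 it covered. Each omission of a library also lost some of the calls. Members called over all treatments ranged from 23 to 28 when 1 library was left out, against 26. The untreated count of 11 ranged from 3 to 15, the HNE count of 8 from 3 to 10 and the H2O2 count of 10 from 3 to 13, where the lone library left in a group is assumed to vary like the others. The share of all genes called within a treatment also moved with the library left out. limma on log2(FPKM + 1) without a filter gave 6 untreated (9.68%, beside 3.47% of genes). It gave 5 with HNE (8.06%, beside 3.43%) and 6 with H2O2 (9.68%, beside 3.23%). The fit to the compared groups alone gave 3 for the line difference with HNE (4.84%, beside 1.33% of genes). For HNE in shHuR it gave 1 (1.61%, beside 0.385%). For HNE over both lines, DESeq2 called 2 members and edgeR without a filter 3, against 0; without a filter 2 were called in shControl and 2 in shHuR, and DESeq2 called 1 in shHuR. Leaving out 1 library gave 0 to 2 over both lines, 0 to 5 in shControl and 0 to 1 in shHuR. H2O2 and both interactions stayed at 0 in every alternative run.

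With the replicate block 44 of 47 results kept their call. DNAJC17 and HSPB11 untreated (adjusted p = 0.0614 and 0.0576) and HSPH1 with H2O2 (adjusted p = 0.0556) lost it. The labels do not say what a replicate number shares. The cause of these differences was not tested.

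Genes of a few CPM (HSPA1A, DNAJA4, DNAJC15) are limited by depth. The 2 replicates per group limit every comparison within a treatment.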
